A study of Mus with 4 samples.

Results

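The genes described here encode the inhibitor of differentiation (ID) proteins, Id1, Id2, Id3 and Id4, and the E proteins they bind, Tcf3, Tcf4 and Tcf12. Members were chosen by the gene symbol of the platform annotation: every probe set with a single symbol among these 7 genes was taken, out of 18193 genes with such a probe set, which gave 22 of the 45037 probe sets tested. The ID genes had 8 of them and the E protein genes 14. RNA came from PPS-ICBR, a mouse prostate cancer line that the labels place on a C57Bl6 background, and was measured on Affymetrix mouse expression arrays. In 2 arrays the cells had been kept overnight with 5 µM vorinostat, a hydroxamic acid that inhibits histone deacetylases, dissolved in DMSO. In the other 2 arrays the cells had received DMSO alone, 5 µL in 10 mL of medium. All cells were grown in DMEM with 10% FBS and plated at 60% confluency.

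E proteins are basic helix-loop-helix (bHLH) transcription factors found in most tissues. They pair through their helix-loop-helix domain with each other or with tissue-specific bHLH factors, and bind the short DNA motif called the E-box. ID proteins have the helix-loop-helix domain but no basic DNA-binding region, so an E protein paired with an ID protein does not bind DNA. ID genes are well-known targets of bone morphogenetic protein (BMP) signalling through SMAD1 and SMAD5, and in human prostate ID1 has been linked to tumour growth while ID4 is silenced in many tumours.

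The labels do not state whether separate cultures were used for the arrays of each group, so the p-values describe the spread among these 4 arrays, which may be technical, and their number limits the precision. The arrays had medians between 4.20 and 4.28 in the deposited log2 units. Of 6 luminal epithelial markers measured, 1 rose (Hoxb13) and 1 fell (Krt8), and of 3 basal markers Krt5 changed by 0.09, Krt14 by 0.23 and Trp63 by 0.05 at their brightest probe sets, none past the threshold, although 1 of the 3 probe sets of Krt14 rose. Krt8 read 11.11 and 11.40 with vorinostat and 12.25 and 12.36 with DMSO, a change of -1.05 (SE 0.12) with all 3 of its probe sets lower, and the brightest probe set of Epcam changed by -0.25 (adjusted p = 0.0635 by limma) while 1 of its 2 probe sets rose. The mean level of the luminal list was 8.15 to 8.20 with vorinostat and 8.32 to 8.34 with DMSO. Cdh1, Krt8, Epcam, Krt18 and Hoxb13 were above the near-background range in both groups. Krt18 read 11.37 and 11.48 with vorinostat and 11.51 and 11.48 with DMSO, and the prostate homeobox gene Hoxb13 8.75 and 8.82 with vorinostat and 8.24 and 8.24 with DMSO. The luminal secretory gene Pbsn read 2.24 and 2.00 with vorinostat and 2.05 and 2.20 with DMSO, near background throughout. Of 7 immune markers measured, 1 rose (Cd3e), and only 3, among them Ptprc, were near background in both groups. Of 5 endothelial markers 0 passed the threshold (0 also had an unadjusted p under 0.05), and 3, among them Pecam1, were near background in both groups. Of 6 fibroblast markers, Pdgfra and Dcn rose and Col3a1 fell, and only 1, Lum, was near background in both groups. Col1a2 read 12.40 and 12.53 with vorinostat and 12.67 and 12.68 with DMSO. The mean level of the fibroblast list was 8.11 to 8.38 with vorinostat and 8.00 to 8.08 with DMSO, of the immune list 3.62 to 3.66 with vorinostat and 3.53 to 3.58 with DMSO, and of the endothelial list 3.26 to 3.29 with vorinostat and 3.26 to 3.28 with DMSO. The part of these markers in the results below was not tested, and in such bulk RNA fewer cells of a type and less RNA per cell cannot be told apart.

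The comparison asked how the ID genes and their partners differed with vorinostat relative to the solvent. On the deposited scale the E protein genes were lower with vorinostat, although scaling on reference genes turned the sign of 3 of their 14 probe sets, left 3 that fell and brought 1 past the threshold as a rise, Tcf12 1446294_at (0.66, adjusted p = 0.00831 by limma). Of the 14, 11 fell past an adjusted p of 0.05, namely all 6 of Tcf4, 3 of 5 of Tcf12 and 2 of 3 of Tcf3, and 0 rose by limma (0 rose at an unadjusted p under 0.05 too). Among the Tcf12 calls, 1439209_at was near background on all arrays. Only 3 of the 14 fell without DMSO 1, 5 without DMSO 2, 2 without Vorinostat 1 and 5 without Vorinostat 2. Over the whole table, 7051 probe sets fell with all arrays and 3900 to 4575 with 1 left out, which leaves fewer residual degrees of freedom. The ID genes moved little: 1 of their 8 probe sets rose, a dim one of Id4, and 0 fell by limma (1 at an unadjusted p under 0.05). With reference-gene scaling 6 of the 8 rose, as did 27486 of all 45037 probe sets, while 3930 of all fell. On the deposited scale 15.7% of all probe sets tested fell and 16.5% rose, and of those above the median level 27.6% fell and 26.8% rose. Changes are vorinostat minus DMSO on the log2 scale, with standard errors (SE) and Benjamini-Hochberg adjusted p from limma, n = 2 arrays per group. Probe sets of 1 gene read the same RNA and are not independent of each other.

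**Figure D1:**
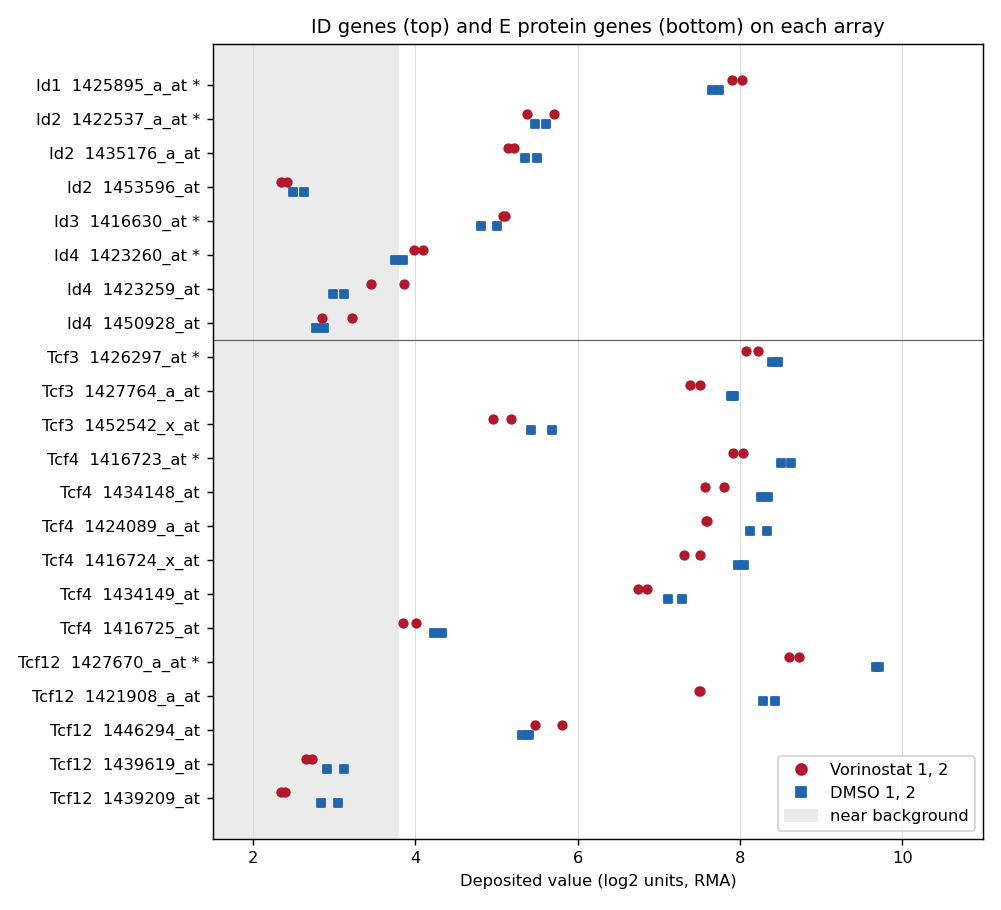
Deposited log2 values (x axis) of each of the 22 probe sets (rows) on each array, with vorinostat arrays as circles and DMSO arrays as squares, and the brightest probe set of each gene starred. The grey band marks values up to 3.78, taken as near background. On this deposited scale the vorinostat arrays lie left of the DMSO arrays for every E protein row except Tcf12 1446294_at, and close to them for the ID rows.

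Tcf12, which encodes the E protein HEB, showed the largest change among the 7 genes by brightest probe set. Its brightest probe set, 1427670_a_at, read 8.61 and 8.72 on the vorinostat arrays and 9.71 and 9.68 on the DMSO arrays. The 2 groups were far apart compared with the gap between arrays of 1 group. The mean was 8.67 ± 0.08 with vorinostat and 9.69 ± 0.02 with DMSO (SD, n = 2 each), a change of -1.03 (SE 0.08, limma adjusted p = 0.000781), which left 49.1% of the DMSO signal. This change lay at the 5.91 percentile of all 18193 genes. The next brightest probe set, 1421908_a_at, read 7.49 and 7.51 with vorinostat and 8.44 and 8.28 with DMSO, a change of -0.86 (SE 0.09, limma adjusted p = 0.00162). Both probe sets kept their call when any single array was left out, over changes of -1.08 to -0.97 and of -0.94 to -0.78.

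The remaining Tcf12 probe sets did not behave alike. 1446294_at read 5.47 and 5.81 with vorinostat and 5.31 and 5.39 with DMSO. It was thus higher on both vorinostat arrays, without passing the threshold (0.29, SE 0.13, limma adjusted p = 0.169). 1439619_at and 1439209_at were near background on all arrays, between 2.35 and 2.73 with vorinostat and between 2.84 and 3.13 with DMSO. Their changes were -0.33 (adjusted p = 0.0681) and -0.57 (adjusted p = 0.0101) by limma, and no fold is given for values this low. Near background here means at most 3.78 on every array of a group, 1 log2 unit above the highest value of the control for a bacterial tryptophan gene, which read 2.07 to 2.78. With all 5 probe sets averaged, Tcf12 changed by -0.50 (limma adjusted p = 0.0033), a smaller change than that of its brightest probe set, and Tcf4 by -0.54.

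Tcf4 encodes the E protein E2-2 and is distinct from the WNT effector Tcf7l2, for which the same symbol has been used. All 6 of its probe sets fell, by 0.35 to 0.64 on the log2 scale, with SE from 0.09 to 0.11 and limma adjusted p from 0.00602 to 0.042. The brightest, 1416723_at, read 7.91 and 8.04 with vorinostat and 8.63 and 8.51 with DMSO, 66.2% of the DMSO signal (-0.60, SE 0.09, limma adjusted p = 0.00625). 1424089_a_at read 7.58 and 7.60 with vorinostat and 8.33 and 8.13 with DMSO, and changed by -0.64 (SE 0.10). In both, every vorinostat array lay below every DMSO array, as it did in the other 4 probe sets of the gene. 1434148_at (-0.62) and 1434149_at (-0.41) derive from one and the same sequence record, and 1416724_x_at (-0.60) is of a type whose probes can match several transcripts. The dimmest, 1416725_at, read 4.01 and 3.85 with vorinostat and 4.24 and 4.33 with DMSO (-0.35).

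Calls of Tcf4 were lost when single arrays were left out, which leaves fewer residual degrees of freedom for every probe set. The probe set 1416723_at did not pass without DMSO 1 (-0.54, limma adjusted p = 0.0626) or without Vorinostat 1 (-0.53, adjusted p = 0.0633), and passed without DMSO 2 (-0.66) or Vorinostat 2 (-0.66). Without Vorinostat 1 the 6 Tcf4 probe sets had adjusted p from 0.0589 to 0.165 in limma.

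Tcf3 encodes E12 and E47, splice forms of the E2A gene. Its brightest probe set, 1426297_at, read 8.23 and 8.08 with vorinostat and 8.47 and 8.40 with DMSO, a change of -0.28 (SE 0.09) that did not pass (limma adjusted p = 0.0733). Like Id1, the gene passed in some settings that kept all arrays, 4 of 7, counting the average of its 3 probe sets (-0.41). The brightest probe set turned to 0.09 with reference-gene scaling. The limma adjusted p was 0.0292 with dim probe sets left out and 0.0187 with an intensity trend. It was 0.0445 with arrays centred on their medians and 0.0138 among gene averages. 1427764_a_at read 7.50 and 7.39 with vorinostat and 7.93 and 7.89 with DMSO. It fell to 72.5% of the DMSO signal (-0.46, SE 0.09, limma adjusted p = 0.0114). 1452542_x_at, made from the same sequence record, read 5.18 and 4.96 with vorinostat and 5.68 and 5.43 with DMSO (-0.49, SE 0.13, limma adjusted p = 0.0384). All 3 probe sets were lower on both vorinostat arrays than on either DMSO array. The calls of 1427764_a_at and 1452542_x_at were lost when any single array was left out (limma adjusted p from 0.0511 to 0.0837 and from 0.0781 to 0.198).

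Across the 3 E protein genes, 13 of 14 probe sets had both vorinostat arrays below both DMSO arrays, against 29.7% of all probe sets. The remaining one, Tcf12 1446294_at, had both above. The 14 read only 3 genes and are not independent of each other. The order of the changes by brightest probe set was Tcf12, Tcf4, Tcf3, and the 95% confidence intervals of Tcf12 (-1.24 to -0.81) and Tcf4 (-0.83 to -0.36) overlap slightly, as do those of Tcf4 and Tcf3 (-0.51 to -0.05). With the probe sets of each gene averaged, Tcf4 came before Tcf12, and Tcf3 last (-0.41). The order itself was not tested.

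**Figure D2:**
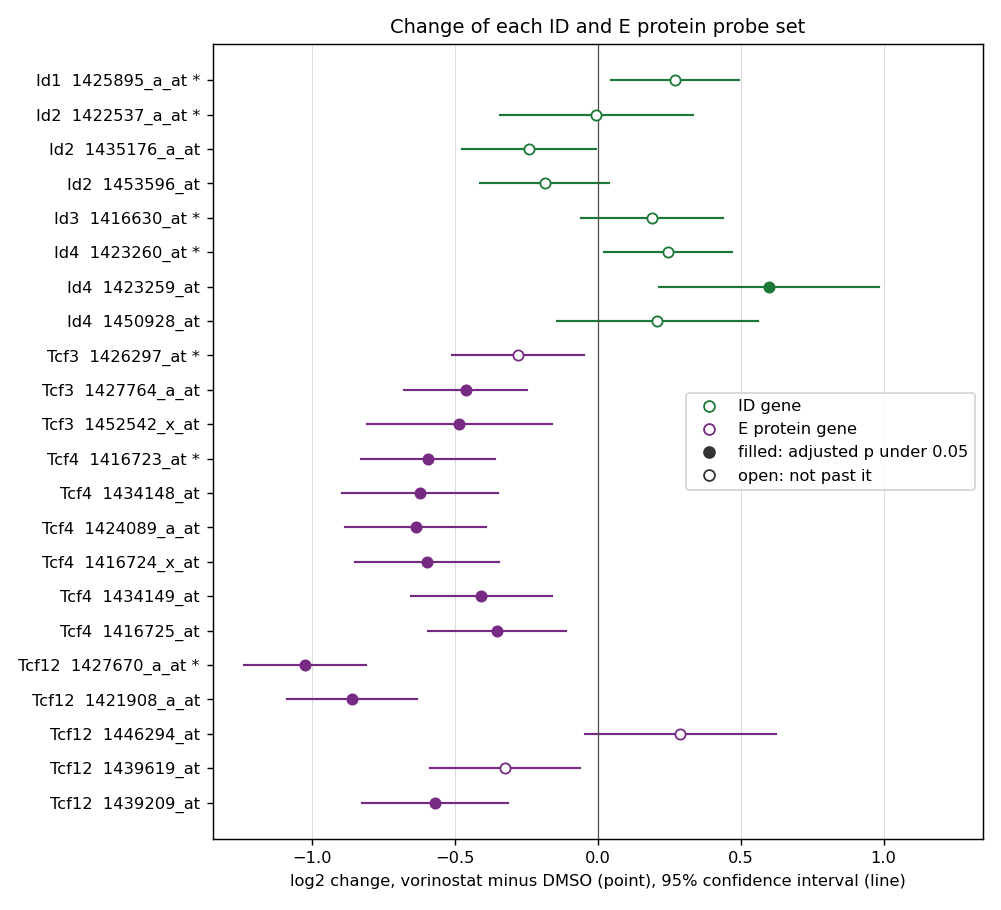
The log2 change of each probe set, vorinostat minus DMSO (x axis), with its 95% confidence interval from limma. Filled points passed an adjusted p of 0.05. The E protein probe sets cluster between -0.28 and -1.03 apart from Tcf12 1446294_at at 0.29, and the ID probe sets lie between -0.24 and 0.60.

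Id1 was the brightest of the ID probe sets and the only probe set of its gene, 1425895_a_at. It read 7.91 and 8.03 with vorinostat and 7.74 and 7.66 with DMSO. Both vorinostat arrays were higher, but the change of 0.27 (SE 0.09), a fold of 1.21, did not pass (limma adjusted p = 0.0727). Its 95% confidence interval ran from 0.05 to 0.49. Id1 did pass in 5 of the 7 settings that kept all arrays: with dim probe sets left out (adjusted p = 0.0279), with an intensity trend in the variance (0.0241), with repeated quantile normalization (0.0337), with arrays scaled on reference genes (0.00225) and among gene averages (0.0383).

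Id2 had a pair of probe sets of moderate signal and a dim one. 1422537_a_at read 5.70 and 5.37 with vorinostat and 5.61 and 5.47 with DMSO, and the groups overlapped. Its change was -0.01 (SE 0.13, limma adjusted p = 0.984), with a 95% confidence interval of -0.34 to 0.33. 1435176_a_at read 5.22 and 5.14 with vorinostat and 5.34 and 5.50 with DMSO (-0.24, SE 0.09, limma adjusted p = 0.11). It was lower on both vorinostat arrays, and passed with dim probe sets left out of the adjustment (adjusted p = 0.048). 1453596_at was near background on all arrays.

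Id3 was represented by 1416630_at, which read 5.10 and 5.09 with vorinostat and 5.01 and 4.80 with DMSO. The vorinostat arrays were slightly higher, by 0.19 (SE 0.10, limma adjusted p = 0.219), with a 95% confidence interval of -0.06 to 0.44. The 2 DMSO arrays differed from each other by as much as the groups did.

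Id4 was close to background, so its values say least about the gene. The brightest of its 3 probe sets, 1423260_at, read 3.99 and 4.09 with vorinostat and 3.75 and 3.85 with DMSO (0.24, SE 0.09, limma adjusted p = 0.0969). 1423259_at read 3.86 and 3.45 with vorinostat and 3.12 and 2.99 with DMSO, and was the 1 ID probe set that passed (0.60, SE 0.15, limma adjusted p = 0.0344). Its DMSO arrays were near background, so no fold is given. The vorinostat arrays of this probe set differed by 0.41, and its call was lost without DMSO 1 (0.66), DMSO 2 (0.53) or Vorinostat 1 (0.39). 1450928_at was near background on all arrays (0.21, adjusted p = 0.331 by limma). All 3 probe sets derive from one sequence record, so their common direction is that of neighbouring probes. The average of the 3 rose by 0.35 (limma adjusted p = 0.0287).

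Of the 8 ID probe sets, 4 had both vorinostat arrays above both DMSO arrays, against 33.1% of all probe sets, and 2 had both below, against 29.7%. By brightest probe set 0 of the 4 ID genes and 2 of the 3 E protein genes passed, both lower, against 18.9% of all genes that fell and 20.9% that rose. For ID genes limma gave 2 of 4 an unadjusted p under 0.05, Id1 and Id4, both higher. The median change was 0.22 over the 4 ID genes and -0.60 over the 3 E protein genes, against 0.03 over all genes.

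The balance between an ID gene and an E protein gene can be followed as the difference of their log2 values on each array, which a scaling factor common to an array does not alter. Over the 12 pairs of an ID gene with an E protein gene, taken by brightest probe set, this difference was higher with vorinostat by 0.27 (Id2 with Tcf3) to 1.30 (Id1 with Tcf12). The change was 0.87 for Id1 with Tcf4, 0.55 for Id1 with Tcf3, 1.02 for Id2 with Tcf12 and 0.78 for Id3 with Tcf4. The standard deviation within groups was between 0.02 and 0.23 over the pairs. An exact permutation test over 2 against 2 arrays cannot go below a two-sided p of 0.333, which each of the 12 pairs reached. No other test of these differences was made. The 12 pairs reuse the changes of the same 7 genes, so they are not independent. The common direction also rests on the brightest probe sets. Tcf12 1446294_at changed by 0.29, more than the brightest probe set of any ID gene (0.27 for Id1).

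The direction of the smaller changes depended on how arrays were set level. Scaling the arrays on 7 reference genes, which changed by -0.37 on average, adds a constant to every log2 change and moves the median gene to 0.40. Gusb (-1.42) and Polr2a (-0.75), which both fell past the threshold, weigh most in that average, which is -0.08 over the other 5. On this scale Tcf12 1427670_a_at and 1421908_a_at still fell (-0.66 and -0.49, limma adjusted p = 0.00197 and 0.00508), and of Tcf4 only 1424089_a_at did (-0.27, adjusted p = 0.0414). Tcf12 1446294_at, at 0.29 with no call on the deposited scale, rose by 0.66 (adjusted p = 0.00831). The brightest probe sets of Id1 (0.64), Id2 (0.36), Id3 (0.56) and Id4 (0.61) then rose, and that of Tcf3 turned to 0.09. A constant added to every change cannot alter a gene's place relative to the median gene. By brightest probe set, the E protein genes thus lay below it and Id1, Id3 and Id4 above it on both scales.

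**Figure D3:**
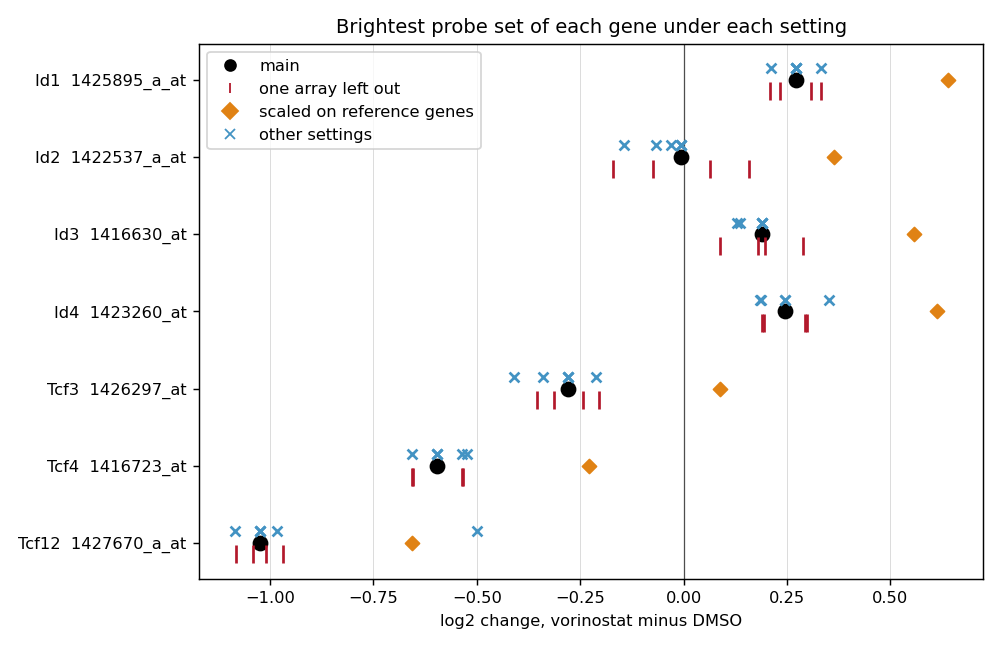
The log2 change of the brightest probe set of each gene (x axis) in the main comparison, with each array left out in turn, with arrays scaled on reference genes, and under the other settings. Among the other settings, the gene average is the mean of all probe sets of the gene rather than its brightest. Tcf12 and Tcf4 stay below 0 throughout, Id1, Id3 and Id4 above 0, and Id2 crosses it; Tcf3 crosses it with reference-gene scaling (0.09).

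ID genes are switched on by BMP signals. Of 32 genes of that route in 4 lists, 4 rose (12.5%) and 7 fell (21.9%), against 20.9% and 18.9% of all genes, so that the shares were below and near the background. Of 7 BMP ligand genes, Bmp2 fell and Bmp4 rose. Bmp2 read 6.18 and 6.34 with vorinostat and 7.97 and 7.96 with DMSO, a change of -1.70 (SE 0.09). Bmp4 read 8.53 and 8.57 with vorinostat and 8.18 and 8.07 with DMSO (0.43, SE 0.08), and its call was lost whichever array was left out. Of 10 receptor and coreceptor genes, the type II receptor Bmpr2 rose (0.42, SE 0.12) and the coreceptor Eng fell (-0.47, SE 0.08). Among their probe sets, 2 of 3 of Bmpr2 rose and 1 of 2 of Eng fell. The call of Bmpr2 was lost whichever array was left out, and that of Eng without DMSO 2, Vorinostat 1 or Vorinostat 2.

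The 4 SMADs of the route included 2 that fell. Smad1, which carries the signal to the nucleus, read 8.78 and 8.87 with vorinostat and 9.64 and 9.56 with DMSO (-0.78, SE 0.08). Smad5, which acts alongside it, read 6.84 and 7.05 with vorinostat and 7.99 and 7.78 with DMSO (-0.94, SE 0.12). All 3 probe sets of each of these genes fell, while the common partner Smad4 changed by -0.12 (adjusted p = 0.317 by limma). Of 11 inhibitors of the route, 2 rose (18.2%) and 3 fell (27.3%), against 20.9% and 18.9% of all genes. The inhibitory SMAD Smad7 rose by 0.97 (SE 0.12) and the secreted modulator Bmper by 0.46 (SE 0.11), a call that Bmper lost whichever array was left out. The secreted antagonist Fst changed by -1.73 (SE 0.11) and the ubiquitin ligase Smurf1 by -0.90 (SE 0.11), and Bambi, a pseudoreceptor named after its value was seen, by -0.49, with no call without DMSO 2, Vorinostat 1 or Vorinostat 2. Over these 4 groups the medians were 0.18 for ligands, 0.03 for receptors, -0.45 for SMADs and -0.08 for inhibitors, against 0.03 for all genes.

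The tissue-specific bHLH factors that pair with E proteins were mostly dim. Of 38 measured, 23 were near background in both groups, 1 rose (2.63%) and 4 fell (10.5%), both shares below the 20.9% and 18.9% of all genes, with a median of 0.01. Scx, the tendon factor scleraxis, read 4.17 and 4.49 with vorinostat and 6.00 and 6.15 with DMSO, a change of -1.75 (SE 0.13). Twist2, a mesenchymal factor, read 7.06 and 7.22 with vorinostat and 7.93 and 7.90 with DMSO (-0.77, SE 0.09), and its relative Twist1, named after its value was seen, changed by -0.58. Twist1 did not pass without DMSO 1 or Vorinostat 1. Tcf23, also named later, fell at near-background values, with no call once any array was left out. Atoh8 rose by 0.30 (SE 0.08), and its call was lost whichever array was left out.

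Other binders and regulators of ID and E proteins moved in both directions, 4 of 15 higher (26.7%) and 6 lower (40.0%), against 20.9% and 18.9% of all genes, with a median of 0.11. Of the 15, 0 were near background in both groups, and of all probe sets above the median level 26.8% rose and 27.6% fell. Usp1, a deubiquitinase that stabilises ID proteins in human cells, read 8.98 and 8.96 with vorinostat and 10.93 and 10.95 with DMSO. This was 25.5% of the DMSO signal (-1.97, SE 0.08, limma adjusted p = 0.00018), and all 3 of its probe sets fell. Atf3, which represses ID1 in human epithelial cells exposed to TGF-beta, read 10.15 and 9.96 with vorinostat and 5.98 and 5.64 with DMSO (4.24, SE 0.14). Egr1, an activator of Id3 in lymphocytes, rose by 2.07 (SE 0.08). The pocket protein Rbl1 fell by 1.79 on the log2 scale at its brightest probe set (SE 0.08), and 2 of its 4 probe sets fell. Rb1, a binding partner of ID2, rose by 1.46. Of the ETS factors that ID proteins can bind, Elk1 rose by 0.86, with no call without Vorinostat 1 or Vorinostat 2, and Elk4 fell by 1.16 on the log2 scale at its brightest probe set, 1 of 4 that fell, and kept its call whichever array was left out. Elk3 changed by 0.11 (adjusted p = 0.441 by limma). Rb1 and these 3 were named after their values were seen.

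Of 6 genes described as targets of E proteins or ID proteins, 4 rose, against 20.9% of all genes, and these 4 were inhibitors of cyclin-dependent kinases, which restrain cell division. The list was written with earlier results of these data known, so this share cannot show whether such targets responded as a group. The 2 named by rule were Cdkn1c (3.43, SE 0.28) and Cdkn1a (1.69, SE 0.16), and the others were Cdkn2b (1.02, SE 0.08) and Cdkn2a (0.89, SE 0.08). The adhesion gene Cdh1, which E47 represses, changed by -0.09 (adjusted p = 0.538 by limma) and Thbs1, which ID1 represses, by 0.17 (adjusted p = 0.463). Neither passed. The median of the 6 was 0.96. Each list gene is represented by its brightest probe set.

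**Figure D4:**
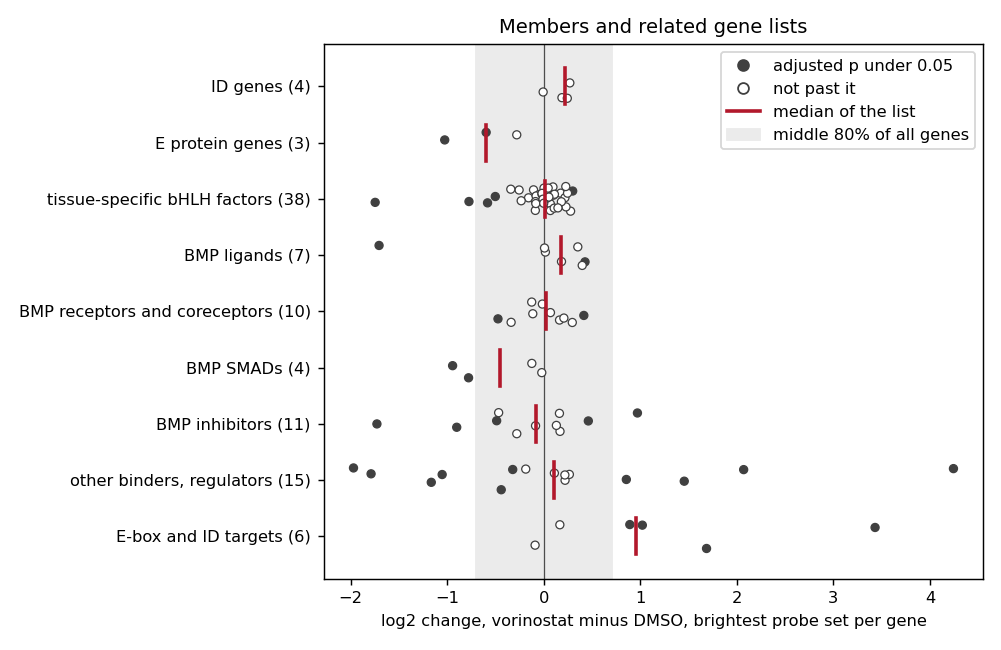
The log2 change of each gene by its brightest probe set (x axis), for the ID genes, the E protein genes and 7 related lists (number of genes in brackets). Filled points passed an adjusted p of 0.05, red bars are medians and the grey band, from -0.70 to 0.71, holds the middle 80% of all genes. The ID genes lie inside the band, and Tcf12 lies outside it.

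The symbols Tcf3 and Tcf4 were once also used for the WNT pathway factors Tcf7l1 and Tcf7l2, so these were set beside the members. Tcf7l1 read 6.26 and 6.40 with vorinostat and 5.94 and 5.81 with DMSO, a change of 0.46 (SE 0.10), opposite to Tcf3, and its call was lost whichever array was left out. Tcf7l2 changed by 0.04 at its brightest probe set (SE 0.11, adjusted p = 0.842 by limma), against -0.60 for Tcf4, although 1 of its 4 probe sets fell. Lef1 was near background (-0.10). Tcf7 had no probe set with a single symbol in the annotation used here.

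The genes whose 4 array values ran closest to those of an ID gene, by Euclidean distance after centring each gene on its mean, were Tmem217, Muc5b and Exoc4 for Id1 (distances 0.0222 to 0.0307) and Cytl1, Akap4 and Tex22 for Id2 (0.0164 to 0.0271). For Id3 they were Phrf1, Slc22a2 and Ccdc185 (0.012 to 0.0264), and for Id4 Glrp1, Dusp22 and Hyal5 (0.0133 to 0.0199). With 4 arrays and small changes such likeness is common: 805 to 2325 of 16251 genes lay within a distance of 0.2 of each ID gene.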

How the data were processed

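The deposited values are in log2 units, 1 for each probe set on each array. RMA and Transcriptome Analysis Console are the tools given in the submitters' processing notes, without versions; RMA, as defined, equalises the intensity distributions of the arrays, which hides any shift common to all transcripts. The 64 control probe sets of 45101 were left out. The platform annotation gave 1 symbol to 34945 probe sets, several to 932 and none to 9160, and 18193 genes were each represented by the brightest probe set. No genome build is named in the sources used here, and coordinates are not printed.

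The 2 groups were compared with limma 3.58.1 (R 4.3.3; lmFit, eBayes, two-sided, 3.26 prior degrees of freedom), with Benjamini-Hochberg adjustment over 45037 probe sets and a threshold of 0.05, with no filter. The code was tested on simulated data. Alternatives were a filter on dim probe sets, an intensity trend, 3 scalings, the replicate number as a block, the mean of a gene's probe sets and the omission of each array. Reference-gene scaling used the 7 of 9 listed genes with a single-symbol probe set.

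Members, lists and alternatives were chosen with earlier results of these data known; the near-background margin was set after the values were seen. The text names every member probe set, and up to 2 rises and 2 falls past the threshold per list, unless stated. Same-numbered arrays deviated with a correlation of -0.06, so the numbers were not taken as pairs.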

Additional observations from a re-analysis of the deposited data

How the results depend on the processing

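Over the alternatives, the 2 brightest Tcf12 probe sets kept their direction and their call throughout. The replicate block gave 9 member probe sets lower and 1 higher, and 2 member genes lower and 0 higher; the samples share only a number. Scaling on reference genes gave 3 member probe sets lower and 7 higher, 1 member gene lower and 4 higher, 3930 of all probe sets lower and 27486 higher, and 11 list genes lower and 60 higher; 84.7% of called genes were then higher, against 52.5%. It reversed the 3 Id2 probe sets (0.36, 0.12 and 0.18), Tcf3 1426297_at (0.089), Tcf4 1416725_at (0.016) and Tcf12 1439619_at (0.043). Id2 1422537_a_at ranged from -0.17 to 0.16 with 1 array left out, and was above 0 without DMSO 1 (0.064) or Vorinostat 2. The intensity trend and repeated quantile normalization each gave 2 member probe sets higher and 1 member gene higher, the filter on dim probe sets 1 gene higher and gene averages 2. The intensity trend, the filter on dim probe sets, centring on array medians and gene averages each gave 3 member genes lower. With 1 array left out, 2 to 5 member probe sets fell and 0 to 1 rose, 1 to 2 member genes fell and 0 rose, 3900 to 4575 of all probe sets fell and 3778 to 4284 rose, and 10 to 13 list genes fell and 8 to 11 rose; fewer arrays leave fewer residual degrees of freedom. By array, 3 member probe sets fell without DMSO 1, 5 without DMSO 2, 2 without Vorinostat 1 and 5 without Vorinostat 2. Of 31 called list genes, 18 kept their call whichever array was left out. The cause of the other differences was not tested. Signal near background limits what can be said of Id4 and of 1 Id2 and 2 Tcf12 probe sets.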
